A study of Mus musculus with 30 samples.

Results

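Mouse hearts at embryonic day 16.5 (E16.5) were compared with hearts at E14.5 across all genes, in 6 of the 30 libraries of a study that followed the heart from E10.5 to 8 weeks after birth. All 6 came from wild-type, untreated mice and differed by label in age alone, 2 days of gestation apart, with 3 libraries at each age. Poly(A) RNA was sequenced, and the values are counts of fragments per gene. The labels do not say whether a library is from 1 embryo or several, so the spread between libraries behind the p-values, estimated over all 30 libraries, may be technical.

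In this window the chambers and valves of the mouse heart have formed, its wall compacts, its coronary vessels spread and its muscle cells still divide. Fetal heart muscle relies strongly on glucose, and the enzymes of fatty acid oxidation and respiration are known to build up towards birth and after it. Over the same days the fetal liver takes over the making of red cells, and primitive red cells with embryonic globins give way to definitive red cells with adult globins. Whole hearts were used, so fewer cells of a type and less RNA per cell cannot be told apart.

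The libraries held 31384724 to 31737950 counts at E14.5 and 26441345 to 30767167 at E16.5. Log2 levels of replicates were correlated with r of 0.9885 to 0.9889 at E14.5 and 0.9858 to 0.9871 at E16.5. The first principal component of the 6 libraries separated the ages and held 48.5% of the variance. The second held 15.1% and set E16.5 replicate 3 (-42) apart from E16.5 replicates 1 and 2 (11.2 and 26.8). E14.5 replicates 1 and 3 carried both Y-linked transcripts and Xist, the RNA of the inactive X chromosome, a sign of material from both sexes. E14.5 replicate 2 and E16.5 replicates 1 and 3 carried Y-linked transcripts, and E16.5 replicate 2 carried Xist. The sex make-up of the libraries thus differed between the ages, and no E16.5 library carried both kinds of transcript. The 12 cardiomyocyte markers summed to 40691 to 41044 CPM (counts scaled to the effective library size) at E14.5 and 45967 to 49289 at E16.5, and all 12 were detected in each library.

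The question was which genes change over these 2 days. Of 19280 genes tested, 5020 (26%) changed at an adjusted p under 0.05 (edgeR quasi-likelihood test with Benjamini-Hochberg adjustment over all genes). There were 2711 that rose (14.1% of those tested) and 2309 that fell (12%). These shares are the background for the counts of called list members below. Changes of at least 2-fold were called in 479 rising genes (2.48%) and 406 falling genes (2.11%), and the median size of a called change was 0.48 on the log2 scale. Of the called genes, 4794 were protein-coding. The libraries of both ages did not overlap in 47.1% of all genes tested, and 25.5% were both called and without overlap. The split depended on scaling: with library size alone 1508 rose and 4015 fell, since the median of all genes then moved from 0.00 to -0.15, and all changes below are relative to the scaling by trimmed mean of M values (TMM). Without E16.5 replicate 3, 2521 rose and 2058 fell. Without E16.5 replicate 1, 1956 rose and 1490 fell, the latter a change of more than 1.5 times.

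Changes also followed the length and base composition of genes. Over 5 equal groups of genes from short to long exon length, the median log2 change ran 0.18, 0.08, 0.01, -0.04 and -0.14. From low to high GC content it ran -0.22, -0.08, 0.06, 0.15 and 0.14. The trends ran the other way in the step before (E14.5 against E12.5), where the length groups went from -0.21 to 0.14, and in the step after (E18.5 against E16.5), where they went from -0.21 to 0.15. With a smooth trend on length and GC content taken out of each library, 4286 genes were called, 2540 higher and 1746 lower. The part of these trends in the changes of short genes was not tested, and the counts with the trends removed are given below beside the groups they touch.

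**Figure D1:**
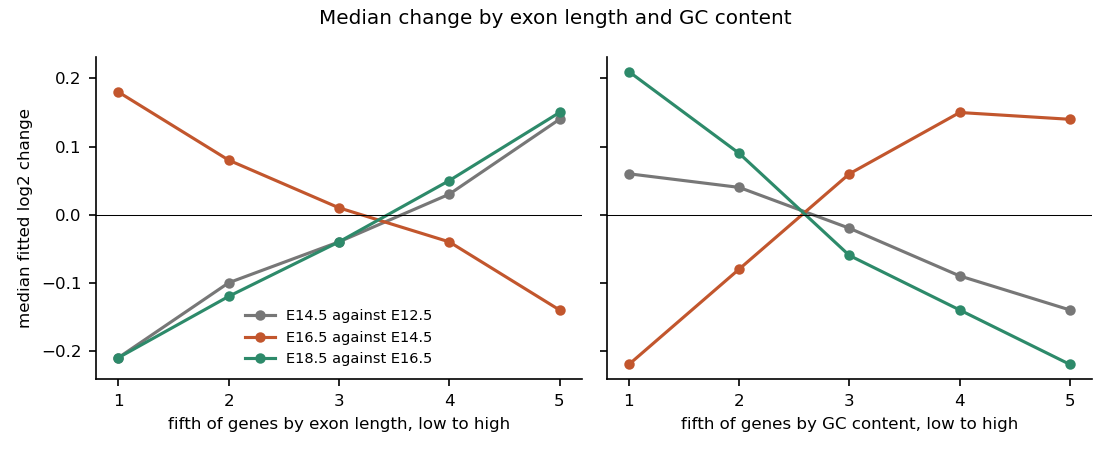
Median fitted log2 change (y axis) of genes in 5 equal groups by exon length (left) and by GC content (right), from low to high, for 3 steps between neighbouring ages. E16.5 against E14.5 runs from 0.18 to -0.14 with length, and both neighbouring steps run the other way.

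The 12 largest rises among called genes of at least 10 CPM whose ages did not overlap were led by Kcnip2, Plin4 and Ptgds. Kcnip2 (chr19:45791839-45816061, GRCm38, minus strand) encodes the subunit that brings the fast transient outward potassium channel to the membrane. It stood at 0.933, 1.03 and 1.11 CPM in the E14.5 libraries and at 21.8, 16.7 and 13.5 CPM in the E16.5 libraries. The ages did not overlap, and the fitted log2 change was 4.07 ± 0.21 (SE; adjusted p = 2.3e-13). Plin4, which coats lipid droplets, rose by 3.07 ± 0.22 (from 1.65 ± 0.232 to 13.9 ± 2.26 CPM, mean ± SD, n = 3). Ptgds, a prostaglandin D synthase, went from 5.96 ± 1.23 to 47.5 ± 6.15 CPM. Further genes among the 12 largest rises were Ankrd63 (2.92), Dhrs7c (2.80), a reductase of the sarcoplasmic reticulum of muscle, Adhfe1 (2.79), a mitochondrial dehydrogenase of heart, liver and fat, the complement component C3 (2.66), Cavin4 (2.61) and the incretin receptor gene Gipr (2.57). All values in that sentence are log2 changes, and in each of these genes the 3 E16.5 libraries lay above the 3 E14.5 libraries.

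The 12 largest falls under the same limits, which leave out genes of lower level, were led by Hbb-y. Hbb-y, an embryonic beta globin, fell by 5.02 on the log2 scale, and Hba-x, the embryonic alpha globin, was the next of the 12. Col2a1 and Col9a1, collagens of cartilage and of the valve and outflow cushions, fell by 2.77 and 1.54. Hapln1, which links hyaluronan to versican, fell by 2.09, and the chromatin protein gene Hmga2 by 1.68. The others were Gfra1 (-1.58), a receptor gene for glial cell line-derived neurotrophic factor, Dgkk (-1.49), the endocardial transcription factor gene Gata5 (-1.47), Edil3 (-1.44), an endothelial matrix protein gene, the netrin receptor gene Unc5c (-1.42) and Nipal4 (-1.41). In all 12 the libraries of both ages lay apart, as the plot of the lead genes shows.

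**Figure D2:**
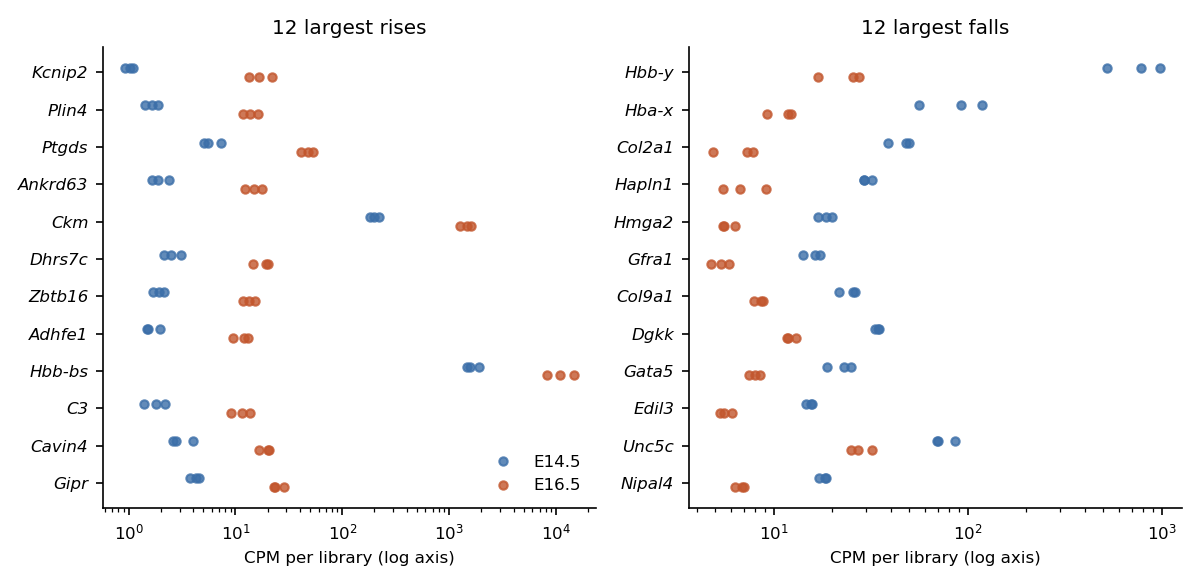
Level in each library (CPM, log axis) of the 12 genes with the largest rises (left) and the 12 with the largest falls (right) from E14.5 (blue) to E16.5 (orange), 3 libraries per age. No gene shown has overlapping ages; Kcnip2 goes from about 1 CPM to 13.5 or more.

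**Figure D3:**
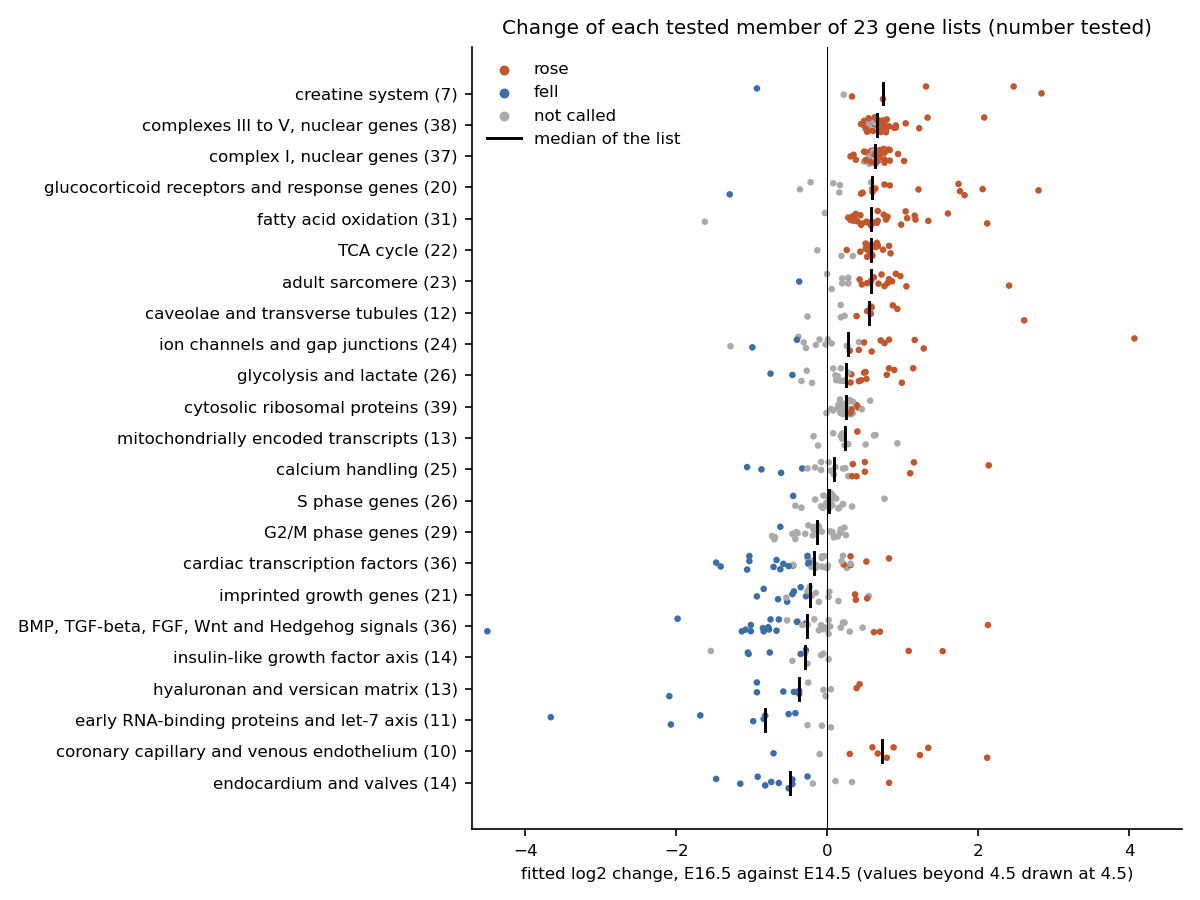
Fitted log2 change (x axis) of each tested member of 23 gene lists, with called rises in orange, called falls in blue, genes not called in grey and the median of each list as a black bar. Respiratory chain, fatty acid and sarcomere lists lie to the right of 0, and the let-7 axis and valve lists to the left.

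Most genes of the adult sarcomere list rose. Of 23 tested genes of the adult sarcomere, 15 rose and 1 (Nebl, -0.37) fell, with a median log2 change of 0.58 against 0.00 over all genes. Myom2, an M-band protein of adult heart and fast muscle, stood at 30.4, 30.4 and 38.7 CPM at E14.5 and at 202, 160 and 167 CPM at E16.5. The ages lay far apart, and the change was 2.41 ± 0.17 (adjusted p = 3.7e-11). Tnni3, the adult cardiac troponin I, went from 416, 465 and 471 to 939, 933 and 925 CPM, a change of 1.05 ± 0.08. Cardiac troponin T (Tnnt2) rose by 0.80, the ventricular myosin light chain gene Myl3 by 0.91 and cardiac actin (Actc1) by 0.62. Titin (Ttn) had a change of 0.00 ± 0.16 and was not called. With library size alone 13 rose, and with the length and GC trends removed 15 rose.

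Fetal isoforms were divided. Myh7, the slow beta myosin heavy chain that fills the fetal mouse ventricle, went from 11930.6, 12719.7 and 11980.5 to 21435.2, 20154.5 and 20393.0 CPM (0.76 ± 0.21, adjusted p = 0.01). Myh6, the alpha form that replaces it after birth, stood at 4640, 4785 and 4203 CPM and then at 5877, 5024 and 5625 CPM (0.28 ± 0.11, adjusted p = 0.059). The ages did not overlap for Myh6, but its test did not pass, whereas DESeq2 gave an adjusted p of 0.045 and 3 other alternatives also called it (adjusted p from 0.00057 to 0.049). Slow skeletal troponin I (Tnni1) rose by 0.70 and the perinatal skeletal myosin gene Myh8 by 1.87. Slow skeletal troponin T (Tnnt1) fell from 157, 177 and 157 to 79.2, 62.5 and 91.2 CPM (-1.08 ± 0.13). The natriuretic peptide genes Nppa (0.28, adjusted p = 0.084) and Nppb (0.63, adjusted p = 0.26) were not called, although in both each E16.5 library was above each E14.5 library. In total 3 of 14 genes of the fetal and stress list rose and 1 fell, so that 28.6% were called, near the 26% of all genes tested.

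The promoter of Myoz2, a Z-disc protein gene that rose from 84.6 ± 2.9 to 126 ± 6.52 CPM (0.58 ± 0.08), and that of Ckm are shown because they carry short motifs of muscle genes. Capitals mark a loose form of the core motif of MEF2 factors, with any base allowed in its middle, and CAGCTG, a form of the E-box. Both were searched on both strands in the 250 bases before the RefSeq start (GRCm38.p6). The Myoz2 window is chr3:123034988-123035237 (minus strand) and that of Ckm chr7:19410844-19411093 (plus strand).
Myoz2: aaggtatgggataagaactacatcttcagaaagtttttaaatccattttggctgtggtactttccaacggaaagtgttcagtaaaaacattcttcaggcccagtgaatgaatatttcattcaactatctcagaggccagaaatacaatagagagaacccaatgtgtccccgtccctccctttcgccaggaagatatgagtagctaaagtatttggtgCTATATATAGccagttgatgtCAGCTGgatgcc
Ckm: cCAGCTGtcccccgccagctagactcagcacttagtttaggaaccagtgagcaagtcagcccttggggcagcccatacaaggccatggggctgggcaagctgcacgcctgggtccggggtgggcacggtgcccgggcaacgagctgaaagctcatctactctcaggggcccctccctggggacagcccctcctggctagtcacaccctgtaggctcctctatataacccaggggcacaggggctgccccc
The loose form of the MEF2 motif was found in 5 of the 20 adult sarcomere promoters in the table (Mybpc3, Ttn, Myoz2, Ldb3 and Xirp2). It was found in 3.7% of all 27025 promoters. Its middle bases were not restricted, so a match need not be a MEF2 motif. Of these 5 genes, Mybpc3 (0.53), Myoz2 (0.58) and Ldb3 (0.46) rose, while Ttn (0.00) and Xirp2 (0.20) were not called. CAGCTG was found in 4 of the 20 and in 14.7% of all promoters. The motifs were chosen after the values were seen, and a match is a description of the sequence.

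The creatine system, which carries energy from mitochondria to the sarcomere, held some of the largest rises. Ckm (chr7:19404776-19422841, plus strand), the muscle creatine kinase, stood at 183, 200 and 221 CPM at E14.5 and at 1596, 1471 and 1261 CPM at E16.5. The ages lay far apart, with a change of 2.84 ± 0.13 (adjusted p = 7.8e-17). Ckm had been at 29.5 ± 1.33 CPM at E12.5 and stood at 1775 ± 80.5 CPM at E18.5. Its mitochondrial partner Ckmt2 went from 5.05, 4.92 and 6.09 to 33.1, 32.3 and 23.9 CPM (2.47 ± 0.15). The brain form Ckb rose less, by 0.74 ± 0.15. Gatm, which makes the creatine precursor, fell by 0.93, and 5 of 7 genes of the list rose in all.

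Caveolar genes rose with the muscle genes. Of 12 genes of caveolae and transverse tubules, 8 rose, with a median of 0.55. Cavin4, the caveolar coat protein of muscle, went from 2.61, 2.78 and 4.01 to 20.4, 20.1 and 16.7 CPM. Cav1 rose by 0.87 ± 0.08 and the muscle caveolin Cav3 by 0.93 ± 0.12. The transverse tubule genes Bin1 (0.23), Dysf (0.18) and Mtm1 (-0.26) were not called.

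Calcium handling and ion channel genes changed gene by gene. Of 25 calcium genes 8 rose and 4 fell, with a median of 0.09 that became -0.06 with library size alone. With the trends removed 13 rose, and with library size alone 5. Casq2, the cardiac calcium store protein calsequestrin, rose from 303, 309 and 338 to 720, 711 and 677 CPM (1.15 ± 0.10), while the skeletal form Casq1 fell from 150, 170 and 123 to 72.1, 65.2 and 75.4 CPM (-1.06 ± 0.21). Sarcolipin (Sln), an inhibitor of the calcium pump, rose by 2.14 ± 0.15, phospholamban (Pln), another such inhibitor, by 0.50 ± 0.10, and the ryanodine receptor gene Ryr2, the release channel, by 0.50 ± 0.12. The call of Ryr2 was lost with library size alone (0.35, adjusted p = 0.062). The pump itself, Atp2a2, had a change of 0.28 ± 0.12 (adjusted p = 0.088) and was called with the trends removed (0.30, adjusted p = 0.031). The T-type calcium channel gene Cacna1h fell by 0.61.

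Of 24 channel and gap junction genes 10 rose and 2 fell, and with library size alone 7 rose and 4 fell. Besides Kcnip2, the repolarising channel gene Kcnq1 went from 19.8, 18 and 18.6 to 44.7, 43.4 and 38 CPM (1.16 ± 0.10), and Kcnj8, a pore of the ATP-sensitive potassium channel also found in pericytes, rose by 1.28 ± 0.12. The pore genes of the transient outward current, Kcnd2 (-0.10) and Kcnd3 (-0.31), were not called. The pacemaker channel gene Hcn2 rose by 0.82 and Hcn4 (-0.28) was not called. The main ventricular connexin gene Gja1 rose by 0.30.

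Most nuclear genes of mitochondrial energy supply rose. Of 31 genes of fatty acid oxidation and uptake, 29 rose, with a median of 0.58. The members not called were Cpt1a (-0.03), the liver form of the carnitine enzyme, and Ucp3. Acsl1, which activates long fatty acids, stood at 50.3, 46.3 and 54.2 CPM at E14.5 and at 161, 154 and 143 CPM at E16.5 (1.60 ± 0.12). The fatty acid binding protein gene Fabp3 went from 176, 192 and 209 to 458, 430 and 411 CPM (1.17 ± 0.10). Gpihbp1, which holds lipoprotein lipase on capillary walls, went from 4.83, 4.99 and 7.04 to 28.5, 23.4 and 21.4 CPM (2.12 ± 0.17). The beta-oxidation enzymes Acaa2 (1.16) and Acadvl (1.06) and the muscle carnitine enzyme Cpt1b (0.80), picked after their values were seen, also rose. In each gene named here except Cpt1a and Ucp3, the ages did not overlap.

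The cycle and the chain behind it rose too. Of 22 genes of the tricarboxylic acid cycle and pyruvate dehydrogenase, 19 rose (median 0.58), among them Sdhb (0.84), Sdhc (0.82) and Sdhd (0.74), subunits of succinate dehydrogenase, and Idh2 (0.67). Of 37 nuclear genes of complex I, 31 rose (median 0.64), and of 38 nuclear genes of complexes III to V, 35 rose (median 0.66). All 75 had a fitted change above 0. Ndufa8 went from 47.7, 49.3 and 50.3 to 106, 101 and 91.5 CPM (1.02 ± 0.09). Cox8b, the heart and muscle form of a cytochrome oxidase subunit, went from 6.32, 5.23 and 7.35 to 30.5, 24.4 and 25.2 CPM (2.08 ± 0.16), and the muscle forms Cox7a1 and Cox6a2 rose by 1.33 and 1.22.

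These are short genes: the median exon length was 1569 bases in the complex I list and 1715 bases in that of complexes III to V, within the shortest of the 5 length groups, whose median change was 0.18. With the length and GC trends removed, 30 and 34 members of those lists rose, and 28 of fatty acid oxidation and 20 of the cycle. Genes of ribosomal proteins, short as well (median 1830 bases), had 8 of 39 members called higher with a median of 0.25, and with the trends removed the count was 0 (edgeR; 18 of 39 were under an unadjusted p of 0.05 in the reported fit, and DESeq2 called 8). Of the 13 transcripts encoded in the mitochondrion itself 1 rose, mt-Co1, from 7809, 6617 and 7473 to 9400, 10096 and 9322 CPM (0.40 ± 0.09), and with the trends removed 5 rose. All 13 together made 3.02% ± 0.145 of counts at E14.5 and 3.29% ± 0.497 at E16.5 (SD, n = 3), which overlapped.

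Regulators of these genes moved in different directions. Perm1, a muscle coactivator of mitochondrial genes, went from 8.78, 7.05 and 7.86 to 35.1, 31 and 27.6 CPM (1.98 ± 0.10, adjusted p = 2.6e-15). The fatty acid sensor Ppara went from 3.49, 4.13 and 4.5 to 13.5, 13.7 and 13.3 CPM (1.74 ± 0.14). In both, each E16.5 library was far above each E14.5 library. The receptor gene Esrra rose by 0.83, while its relative Esrrg fell by 0.65 ± 0.09. Ppargc1a, a master coactivator of mitochondrial growth, rose by 0.37 ± 0.11 (adjusted p = 0.011), a call lost with library size alone (0.22, adjusted p = 0.19) and without E14.5 replicate 1 (adjusted p = 0.053). Of 18 regulators listed, 8 rose and 2 fell, and with library size alone 5 rose and 4 fell.

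Glucose genes showed exchanges of isoforms. Of 26 genes of glycolysis and lactate, 12 rose and 2 fell (median 0.25). Slc2a4, the insulin-dependent transporter of adult muscle, went from 20.6, 19.2 and 18.1 to 40.5, 37.6 and 36.5 CPM (0.99 ± 0.11). Slc2a1, the fetal transporter, went from 148, 140 and 124 to 102, 96.9 and 101 CPM (-0.46 ± 0.15, adjusted p = 0.025). The call of Slc2a1 was lost with no filter on low counts (adjusted p = 0.065) and without any of E14.5 replicates 1 and 2 and E16.5 replicates 1, 2 and 3 (adjusted p from 0.057 to 0.097). The muscle enolase Eno3 rose by 1.14, muscle phosphofructokinase (Pfkm) by 0.82 and the heart lactate dehydrogenase gene Ldhb by 0.89, against 0.28 (adjusted p = 0.066) for Ldha. The mitochondrial pyruvate carrier genes Mpc1 (1.03) and Mpc2 (0.94) rose, and Pdk4, a brake on pyruvate oxidation, was not called (0.17 ± 0.19).

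Because such pairs share a library, the share of the adult form in the summed counts of a pair does not depend on scaling. In 13 of 16 pairs the share of the adult form was higher in every E16.5 library than in every E14.5 library. Ckm went from 79.4% ± 1.67 to 94.3% ± 0.228 of Ckm and Ckb (SD, n = 3), and Slc2a4 from 12.3% ± 0.348 to 27.6% ± 0.914 of Slc2a4 and Slc2a1. Eno3 went from 18.3% ± 0.63 to 30.9% ± 1.05 of Eno3 and Eno1, Cox8b from 6.79% ± 0.971 to 17.4% ± 2.21 of Cox8b and Cox8a, and Ldhb from 25.7% ± 0.709 to 34.6% ± 0.868 of Ldhb and Ldha.

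The exception was the myosin pair. Myh6 made 28%, 27.3% and 26% of Myh6 and Myh7 at E14.5 and 21.5%, 20% and 21.6% at E16.5, a fall of 6.07 percentage points, before it reached 44.1% ± 0.315 at E18.5. Hk2 of Hk2 and Hk1 (20.9% and 21.4%) and Ryr2 of Ryr2 and Ryr3 (94.9% and 95.2%) overlapped between the ages. Each share without overlap had p = 0.10 in the exact two-sided permutation test, the smallest that 3 libraries against 3 allow, and 0.12 after adjustment over the 19 shares compared. Counts are not per length, so a share compares ages and not the amounts of both proteins, and Myh6 and Myh7 are similar enough in sequence for reads to be assigned to either.

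**Figure D4:**
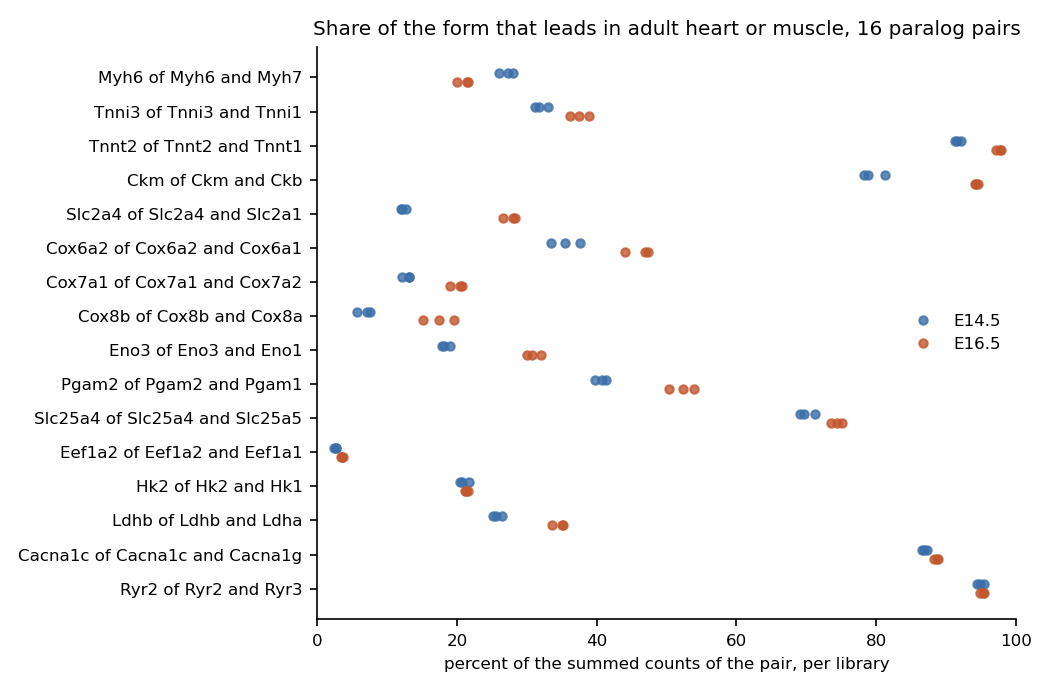
Share of the adult heart or muscle form in the summed counts of 16 paralog pairs (x axis, percent), in each of 3 libraries at E14.5 (blue) and at E16.5 (orange). The shares rise without overlap in 13 pairs, fall for Myh6 and overlap for Hk2 and Ryr2.

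Target genes of glucocorticoids, the adrenal steroids that mature fetal organs, rose. Of 20 receptor and response genes, 13 rose and 1 fell, with a median of 0.60. Zbtb16 (chr9:48654297-48836222, minus strand), a zinc finger gene strongly induced by these steroids, stood at 1.94, 2.14 and 1.69 CPM at E14.5 and at 15.3, 13.3 and 11.7 CPM at E16.5. The ages were far apart (2.80 ± 0.31, adjusted p = 8.8e-07). Klf15, a regulator of heart metabolism, went from 4.38, 5.31 and 4.38 to 20.8, 20.5 and 17.4 CPM (2.06 ± 0.14), and the metallothionein gene Mt1 from 16.7, 18.9 and 22.5 to 71.1, 69.1 and 65.4 CPM (1.82 ± 0.19). The clock gene Per1 (1.21), the kinase gene Sgk1 (0.76) and the leucine zipper gene Tsc22d3 (0.47), picked after their values were seen, rose as well. The receptor gene itself, Nr3c1 (0.08), was not called, the mineralocorticoid receptor gene Nr3c2 rose by 0.60, and Hsd11b2, which inactivates the steroid, fell by 1.29 at levels under 1 CPM. Fkbp5 (0.58), a common target, and Klf9 (0.16) were not called.

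The Mt1 promoter (chr8:94178839-94179088, plus strand) is shown because it holds the paired, inverted repeats of the glucocorticoid response element. Capitals mark the match, and the pattern was searched on both strands.
Mt1: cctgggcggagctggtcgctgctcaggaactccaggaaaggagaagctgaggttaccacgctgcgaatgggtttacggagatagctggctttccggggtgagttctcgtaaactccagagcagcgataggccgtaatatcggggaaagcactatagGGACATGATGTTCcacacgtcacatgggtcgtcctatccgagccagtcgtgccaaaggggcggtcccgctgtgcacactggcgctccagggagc
The pattern was found in 2 of the 15 promoters of the list in the table, Mt1 and Sgk1, and in 0.44% of all 27025 promoters. The list was written with earlier results of these data known, and a match is a description of the sequence.

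Other hormone and nerve signals changed less evenly. The thyroid hormone receptor gene Thra rose by 0.59 ± 0.09, and 3 of 10 genes of that list rose (30% called, near the 26% of all genes tested). Ace, the angiotensin converting enzyme, went from 9.72, 9.76 and 9.84 to 24.7, 26.7 and 22.8 CPM (1.34 ± 0.21), and the endothelin receptor gene Ednrb fell from 126, 137 and 148 to 70.1, 75.2 and 72.1 CPM (-0.92 ± 0.11). The muscarinic receptor gene Chrm2, the vagal brake of the heart, rose by 0.63 ± 0.09. In the adrenergic and muscarinic list 7 of 20 genes rose and 1 fell, and with library size alone 5 rose and 3 fell. The beta receptor gene Adrb1 (0.40) was not called. Of 20 hypoxia genes 8 rose and 2 fell, but with library size alone 4 rose and 5 fell. Hif1a fell by 0.69 ± 0.08, from 255 CPM in each of the 3 E14.5 libraries to 146, 161 and 169 CPM, while the targets Ndrg1 (1.63) and Egln3 (1.31) rose.

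Genes of RNA-binding and chromatin proteins of the early embryo fell. They are shown with matches to the seed of the let-7 miRNAs, which are known to repress genes of this kind. Let-7 miRNAs recognise their targets by the seed, bases 2 to 8, and LIN28 proteins in turn block the maturing of let-7. Of 11 let-7 family miRNAs in the RefSeq table, 10 share the seed GAGGUAG, and let-7j has another. Representative members are given with the seed in capitals.
let-7a-5p: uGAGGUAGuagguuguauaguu
let-7d-5p: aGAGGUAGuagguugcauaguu
let-7g-5p: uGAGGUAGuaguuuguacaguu
miR-98-5p: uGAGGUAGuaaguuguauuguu
let-7j: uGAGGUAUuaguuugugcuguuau
The match to the shared seed, CTACCTC, was searched on the sense strand of the longest annotated 3′ UTR of each gene (GENCODE M21). The first match is shown in capitals for 6 of the 8 genes that fell, in windows on GRCm38 of Hmga2 (chr10:120364217-120364246), Igf2bp1 (chr11:95961771-95961800), Lin28b (chr10:45381015-45381044), Trim71 (chr9:114512465-114512494), Igf2bp3 (chr6:49086780-49086809), all on the minus strand, and Arid3a (chr10:79953895-79953924), on the plus strand.
Hmga2: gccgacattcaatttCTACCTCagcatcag
Igf2bp1: gctgtgcgaagtaaaCTACCTCaaggtgtg
Lin28b: acccgggcgggaagtCTACCTCatgcaagc
Trim71: aacattgcctaagtcCTACCTCagcttaaa
Igf2bp3: tgcatttttactcaaCTACCTCaggtattc
Arid3a: aaggcaagtttctttCTACCTCaggtcttt
All 11 genes of the list hold a match, but the list was written as a let-7 axis. Whether the matches shown are functional sites was not tested, and mature miRNAs were not analysed here.

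Of the 11 genes of this list, 8 fell, with a median of -0.82. Hmga2 (chr10:120361275-120476469, minus strand), a chromatin protein of growing embryonic tissue, went from 20, 16.8 and 18.6 to 5.57, 5.5 and 6.28 CPM (-1.68 ± 0.13, adjusted p = 4.6e-11). It had been at 46.7 ± 2.14 CPM at E12.5 and stood at 3.38 ± 0.257 CPM at E18.5. The mRNA-binding protein gene Igf2bp1 went from 94.9, 95 and 83.9 to 48.4, 50.5 and 55.8 CPM (-0.82 ± 0.10), and the transcription factor gene Arid3a from 13, 10.5 and 11 to 5.38, 5.58 and 6.6 CPM (-0.98 ± 0.16). Lin28b fell by 0.84 ± 0.26 (adjusted p = 0.017), from 3.09, 2.97 and 3.07 to 1.71, 1.65 and 1.75 CPM. The libraries of both ages lay apart in these 4 genes, but the call of Lin28b was lost with the trends removed (-0.54, adjusted p = 0.12) and without E16.5 replicate 1 or 2 (adjusted p = 0.054 and 0.06).

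Trim71, Lin28a, Igf2bp2 (-0.42) and Igf2bp3 (-0.51) fell as well. Trim71 and Lin28a were under 1 CPM in every library, and Trim71 went from 0.622, 0.786 and 0.629 to 0.0311, 0.0838 and 0.0319 CPM (-3.66 ± 0.58). The members not called were Hmga1 (-0.07), E2f5 (-0.26) and Nr6a1 (0.05). Nr6a1 holds 8 seed matches, more than any other gene of the list, against 4 in each of Hmga2, Igf2bp1, Lin28b and Trim71 and 1 each in Igf2bp2, Igf2bp3, Hmga1 and E2f5.

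Among all 15129 tested genes with a 3′ UTR, 10.4% hold a match. Of the 13556 without one, 14.1% fell and 17.6% rose. Of those with 1 match 19% fell and 12.6% rose, with 2 matches 21.9% and 8.88%, and of the 28 with 3 or more 39.3% and 7.14%. These classes differ in length: the median 3′ UTR was 1066 bases without a match and 4461 bases with 3 or more. With the length and GC trends removed the falling shares were 10.7%, 14.2%, 18.3% and 28.6% and the rising shares 16.2%, 13.2%, 11.2% and 14.3%, so that the rising shares no longer fell with each class. Also, 5 of the 28 genes are members of the list, without which 7 of 23 fell and 2 rose in the reported fit. With the trends removed, 5 of these 23 fell (21.7%) and 4 rose (17.4%). No test was made of these shares.

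Growth factor and patterning genes fell more often than they rose. Of 14 genes of the insulin-like growth factor axis 5 fell and 2 rose. Igf1 went from 67.7, 70.6 and 73.8 to 30, 33.6 and 39.4 CPM (-1.04 ± 0.10), and Igfbp5, a secreted binding protein, from 1125.1, 1060.5 and 1087.7 to 499, 530 and 558 CPM (-1.05 ± 0.15). Both were lower in every E16.5 library. Igf2, the main fetal growth factor, fell by 0.28 ± 0.10 (adjusted p = 0.039), a call lost without any 1 of the 6 libraries (adjusted p from 0.075 to 0.10). The binding proteins Igfbp6 (1.53) and Igfbp7 (1.08) rose. Among 21 imprinted growth genes 8 fell and 3 rose, and H19 (0.02) was not called. The falls included Gatm (-0.93 ± 0.16), given above with the creatine system, Peg10 (-0.84 ± 0.10), the cell cycle inhibitor gene Cdkn1c (-0.65 ± 0.15) and Mest (-0.53 ± 0.14).

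Of 36 genes listed for BMP, TGF-beta, FGF, Wnt and Hedgehog signals, 15 fell and 3 rose (median -0.27). The list also held the retinoic acid binding protein genes Crabp1 (-1.98 ± 0.40) and Crabp2 (-1.08 ± 0.37), which were among the falls. The call of Crabp2 was lost without E14.5 replicate 1 or 2 or any E16.5 replicate (adjusted p from 0.065 to 0.17). Wnt5a went from 51.8, 55.8 and 46.8 to 25.1, 23 and 28.7 CPM (-1.01 ± 0.12), and Lef1, a nuclear effector of Wnt signals, from 13.5, 11.6 and 11.8 to 5.04, 4.89 and 6.95 CPM (-1.13 ± 0.21). Tgfb2 (-1.01), which drives cushion formation, and Bmp4 (-0.77), picked after their values were seen, fell too, and the cardiac growth factor gene Fgf16 rose by 2.13 ± 0.40 at levels under 1 CPM. Shh had 24 counts in the E14.5 libraries together and 0 in the E16.5 libraries, at least 6.42-fold lower against a floor of 3 counts over the group. In the Notch and neuregulin list 7 of 22 genes fell and 2 rose. Nrg1, the endocardial growth factor of trabeculae, went from 15.9, 15.5 and 13 to 8.36, 7.73 and 9.27 CPM (-0.81 ± 0.14), and Dll1 fell by 0.60.

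Of 36 cardiac transcription factors 14 fell and 5 rose. Gata5 went from 22.9, 25 and 18.7 to 8.49, 7.99 and 7.49 CPM, and Irx6 from 4, 4.3 and 4.14 to 1.52, 1.48 and 1.66 CPM (-1.41 ± 0.24). Shox2, a factor of the sinus node, fell by 1.03 ± 0.18, and Isl1, of progenitors and sinus node, by 1.06 ± 0.31. The call of Isl1 was lost without E14.5 replicate 3 or E16.5 replicate 1 (adjusted p = 0.053 in both). The core factors Nkx2-5 (0.26 ± 0.10, adjusted p = 0.06) and Gata4 (0.01 ± 0.07) were not called. Nkx2-5 was called in 3 alternatives (adjusted p = 0.047 without mitochondrial and globin genes, 0.0027 with only the 6 libraries and 0.035 without E14.5 replicate 2). Hopx (0.82) and Srf (0.52), factors of muscle maturation picked after their values were seen, rose.

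Matrix genes of the early cushions fell and those of collagen VI rose. In the hyaluronan and versican list 7 of 13 genes fell and 2 rose (median -0.37). Hapln1 went from 29.2, 32 and 29.2 to 5.44, 6.73 and 9.11 CPM (-2.09 ± 0.15), versican (Vcan) from 971, 983 and 981 to 455, 512 and 573 CPM (-0.93 ± 0.09) and the hyaluronan synthase gene Has2 from 12.4, 12 and 13.7 to 6.09, 6.28 and 7.68 CPM (-0.93 ± 0.16). The groups lay apart in all 3, with E16.5 replicate 3 the highest of its age. Without that library the 2 rises in this list were no longer called, and 7 falls were.

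Of 25 genes of fibrillar collagens and interstitial matrix 7 rose and 4 fell, but with library size alone 5 rose and 7 fell. Col14a1 went from 127, 123 and 122 to 267, 268 and 263 CPM (1.10 ± 0.10), and Col6a1, Col6a2 and Col6a3 rose by 0.71, 0.74 and 0.82. The major collagens Col1a1 (0.12) and Col3a1 (0.13) were not called, and fibronectin (Fn1) fell by 0.68. In the basement membrane 6 of 19 genes fell and 3 rose: Lama1 fell from 7.04, 7.15 and 5.59 to 2.02, 1.7 and 2.74 CPM (-1.62 ± 0.31), and Col15a1, of muscle capillaries, rose by 0.79 ± 0.12. Among elastic fibre genes 2 of 15 rose, Ltbp2 (1.14 ± 0.18) and Mfap5 (1.24 ± 0.15), and 3 fell, led by Ltbp1 (-0.82 ± 0.10).

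Markers of endocardium and valves fell in 10 of 14 cases and rose in 1. Apart from Gata5, the natriuretic clearance receptor gene Npr3 went from 140, 141 and 161 to 86.3, 80.3 and 84.2 CPM (-0.82 ± 0.14), and the cushion mesenchyme genes Msx2 (-1.15 ± 0.23), Twist1 (-0.92 ± 0.18) and Sox9 (-0.64 ± 0.14) fell. Without E16.5 replicate 3, 8 of 14 fell. The summed level of the 14 markers was 1812 to 1862 CPM at E14.5 and 1618 to 1710 CPM at E16.5, so the ages did not overlap. Tbx20 fell by 0.26 (adjusted p = 0.039), a call lost with the trends removed (-0.03) and without any 1 of the 6 libraries.

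Capillary markers went the other way. Of 10 genes of capillary and venous endothelium 8 rose and 1 (Nr2f2, -0.71) fell, with a median of 0.73, and their sum went from 322 to 364 CPM at E14.5 to 520 to 559 CPM at E16.5. The capillary fatty acid binding protein gene Fabp4 went from 37.9, 39.4 and 53.9 to 119, 102 and 111 CPM (1.34 ± 0.13), and Btnl9 from 6.84, 8.77 and 9.33 to 16, 15.6 and 14.2 CPM (0.88 ± 0.12). Pan-endothelial genes did not move together: of 14, 5 rose and 3 fell, and Pecam1 (0.18), Cdh5 (-0.12) and Kdr (0.00) were not called. Of 10 arterial genes 1 rose, Sox17 (0.90 ± 0.17), and 2 fell, Bmx (-0.95 ± 0.18) and Efnb2 (-0.30 ± 0.10). This called share of 30% was near the 26% of all genes tested. The call of Efnb2 was lost without any 1 of the 6 libraries except E16.5 replicate 3 (adjusted p from 0.052 to 0.087). Of 8 lymphatic genes 3 rose and 2 fell, with a median of 0.11 that became -0.04 with library size alone, and their sums overlapped (231 to 253 CPM and 222 to 248 CPM). Lyve1 (1.21 ± 0.15), Ccl21a (0.82 ± 0.16) and Reln (0.69 ± 0.13) rose and Sema3d (-0.45 ± 0.10) and Flt4 (-0.39 ± 0.10) fell, while Prox1 (-0.15), the factor that defines lymphatic identity but is also found in heart muscle, was not called.

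Of 16 fibroblast markers 6 rose and 2 fell, with a median of 0.14 that became -0.01 with library size alone. Dpt, a small matrix protein gene, went from 14, 14.6 and 18.6 to 73.3, 71.6 and 60.3 CPM (2.12 ± 0.13, adjusted p = 2.5e-12), and Dpep1 from 3.54, 3.1 and 2.73 to 12, 10.1 and 8.57 CPM (1.71 ± 0.25). Gsn rose by 0.97 ± 0.09 and Tcf21, the factor of fibroblast fate, by 0.56 ± 0.14, whereas Pdgfra fell by 0.51 and Lum by 0.44. Among mural cell genes 4 of 12 rose and 1 fell. The pericyte gene Higd1b had 2 counts at E14.5 and 158 at E16.5, a ratio of 98.5 (95% interval 26.8 to 820, counting error only), Rgs5 rose by 0.76 ± 0.11, and the smooth muscle gene Cnn1 fell by 0.63 ± 0.10.

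Some protease transcripts of mast cells rose from very low levels. Tpsb2, a mast cell tryptase, stood at 0.0239, 0.0492 and 0.0242 CPM at E14.5 and at 2.52, 2.85 and 2.42 CPM at E16.5 (6.18 ± 0.43, adjusted p = 4.3e-12). The chymase gene Cma1 went from 0.191, 0.221 and 0.266 to 4.42, 5 and 4.08 CPM (4.29 ± 0.32), and Cpa3, the mast cell carboxypeptidase, from 0.503, 0.811 and 0.75 to 2.67, 4.08 and 3.41 CPM (2.30 ± 0.33). The libraries lay far apart in all 3, and of 10 tested granulocyte and mast cell genes 6 rose and 1 fell. All 13 markers of that list summed to 39.7 to 44.6 CPM at E14.5 and to 46.2 to 48 CPM at E16.5. Of 14 macrophage genes 3 rose (21.4%, against 26% of all genes tested called either way), among them the coagulation factor gene F13a1 (1.48 ± 0.23). Csf1r (-0.04), Adgre1 (-0.23) and Mrc1 (-0.11) were not called.

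The globins changed over. The promoters of a pair of embryonic and a pair of adult globin genes are shown, with CACCC (a site type of KLF1), CCAAT and AGATAA (a site type of GATA1) in capitals where either strand holds them; matches did not overlap in these windows. They are the 250 bases before the RefSeq start on GRCm38.p6 at chr7:103853208-103853457 (Hbb-y, minus strand), chr7:103827929-103828178 (Hbb-bs, minus strand), chr11:32276350-32276599 (Hba-x, plus strand) and chr11:32283422-32283671 (Hba-a1, plus strand).
Hbb-y: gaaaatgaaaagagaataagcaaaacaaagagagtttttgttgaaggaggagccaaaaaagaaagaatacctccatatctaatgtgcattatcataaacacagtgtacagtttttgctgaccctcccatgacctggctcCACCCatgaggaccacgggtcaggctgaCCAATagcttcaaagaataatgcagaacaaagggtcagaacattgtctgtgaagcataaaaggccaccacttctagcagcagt
Hbb-bs: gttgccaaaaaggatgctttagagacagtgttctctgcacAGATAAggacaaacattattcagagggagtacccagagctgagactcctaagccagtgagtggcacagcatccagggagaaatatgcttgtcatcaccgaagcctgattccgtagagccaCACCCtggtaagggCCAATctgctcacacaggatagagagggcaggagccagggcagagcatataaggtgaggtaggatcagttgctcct
Hba-x: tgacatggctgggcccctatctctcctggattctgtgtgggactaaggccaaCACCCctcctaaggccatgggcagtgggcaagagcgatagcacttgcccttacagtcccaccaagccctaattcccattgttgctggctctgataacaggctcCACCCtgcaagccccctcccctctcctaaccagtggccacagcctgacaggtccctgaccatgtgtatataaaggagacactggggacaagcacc
Hba-a1: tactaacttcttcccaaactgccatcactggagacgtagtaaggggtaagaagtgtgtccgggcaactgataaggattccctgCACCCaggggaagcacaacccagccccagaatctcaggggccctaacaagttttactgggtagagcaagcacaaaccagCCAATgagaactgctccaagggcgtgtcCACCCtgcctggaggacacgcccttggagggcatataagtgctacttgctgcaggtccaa
CACCC was found in all 4 adult and both embryonic globin promoters in the table and in 54.5% of all promoters. CCAAT was found in the 4 adult promoters and in Hbb-y (37.5% of all promoters), and AGATAA in Hbb-bs (11.4% of all). Other forms of the GATA1 site, such as TGATAA, were not searched, so windows without AGATAA may hold one. The motifs were chosen after the values were seen.

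Hbb-y (chr7:103851749-103853216, minus strand) stood at 782, 973 and 524 CPM at E14.5 and at 16.8, 25.7 and 27.5 CPM at E16.5 (-5.02 ± 0.34, adjusted p = 7e-09). Hba-x went from 92.5, 118 and 55.8 to 9.24, 12.2 and 11.8 CPM and Hbb-bh1, another embryonic beta globin gene, from 10.1, 10.9 and 4.81 to 0.653, 1.37 and 0.701 CPM (-3.22 ± 0.52). The groups lay apart in all 3, and E14.5 replicate 3 was the lowest of its age. Embryonic globins made 16.8%, 16.4% and 12.2% of all globin counts at E14.5 and 0.111%, 0.118% and 0.214% at E16.5.

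All 4 adult globins rose. Hbb-bs went from 1476, 1917 and 1562 to 10864, 14596 and 8169 CPM (2.76 ± 0.42, adjusted p = 4.4e-05), and Hba-a1, Hba-a2 and Hbb-bt rose by 2.18, 2.19 and 2.23. E16.5 replicate 3 was the lowest of its age and E16.5 replicate 2 the highest in each of the 4. Hba-a1 and Hba-a2, and Hbb-bs and Hbb-bt, are near-identical copies, so the counting could split reads between them and single values are uncertain. All globins together went from 0.729% ± 0.119 to 2.98% ± 0.829 of counts (SD, n = 3) without overlap. They had made 2.83% ± 0.212 at E12.5 and made 0.451% ± 0.252 at E18.5. Other red cell genes rose with them: Alas2, the heme synthesis enzyme of red cells, went from 40.2, 48.4 and 31.1 to 199, 306 and 187 CPM (2.53 ± 0.35), and Bpgm and Slc4a1 rose by 1.35 and 1.30. In all 6 of 12 red cell markers rose, while Klf1 (-0.43) and Gata1 (0.70) were not called. With mitochondrial and globin genes left out before scaling, 2823 genes rose and 2185 fell over the whole table.

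**Figure D5:**
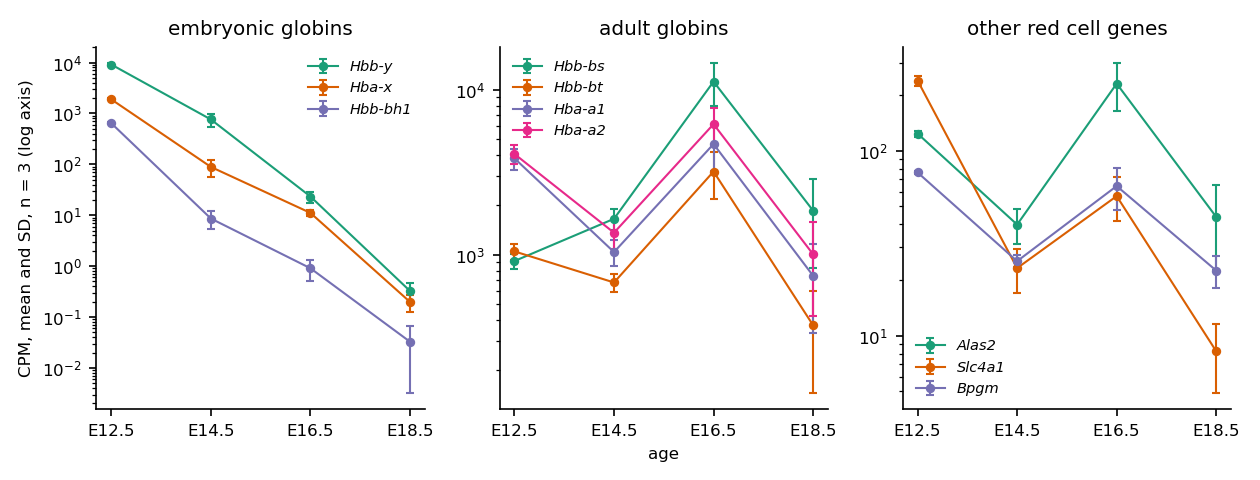
Mean level (CPM, log axis) with SD over 3 libraries at 4 ages from E12.5 to E18.5 of embryonic globins, adult globins and other red cell genes; the lower bar of Hbb-bh1 at E18.5 is cut short because its SD exceeds its mean. Embryonic globins fall at each step, and the other genes shown peak at E16.5 among these ages except Slc4a1 and Bpgm, which are highest at E12.5.

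Few genes of cell division were called in the fit over all ages. Of 26 S phase genes 1 (Pola1, -0.45) was called and of 29 G2/M genes 1 (Cenpf, -0.62), with medians of 0.03 and -0.14. At an unadjusted p under 0.05 there were 3 and 4, and DESeq2 called 1 in each list. Both calls were lost with the trends removed (Pola1 -0.18, adjusted p = 0.37; Cenpf -0.35, adjusted p = 0.075), and that of Pola1 also without E16.5 replicate 1 (adjusted p = 0.095). Mki67 was at 196, 226 and 221 CPM at E14.5 and 121, 138 and 129 CPM at E16.5 without overlap, but the test over all ages did not pass (-0.73 ± 0.30, adjusted p = 0.083), and with only the 6 libraries in the fit it did (adjusted p = 3.8e-10). Of 13 cell cycle inhibitor genes 3 rose, Cdkn2c (0.95 ± 0.16), Cdkn2d (0.64 ± 0.15) and Cdkn1a (0.64 ± 0.19), and 1 fell, Cdkn1c (-0.65 ± 0.15). The summed level of the inhibitor list was 783 to 808 CPM at E14.5 and 751 to 774 CPM at E16.5. That of the G2/M list was 2143 to 2313 CPM at E14.5 and 1861 to 2071 CPM at E16.5, without overlap. The S phase sums overlapped (1593 to 1700 CPM and 1582 to 1773 CPM). The call of Cdkn1a was lost with library size alone (adjusted p = 0.051) and without E16.5 replicate 1 (adjusted p = 0.051). Genes of a joint list of antioxidant and iron genes rose in 11 of 21 cases. Among those of at least 1 CPM they were led by myoglobin (Mb), the heme protein that stores oxygen in heart muscle, from 223, 244 and 264 to 645, 571 and 589 CPM (1.31 ± 0.13).

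Markers of lung epithelium, neurons and cartilage fell, while those of liver and fat did not. The 8 lung epithelium markers summed to 2.93 to 6.96 CPM at E14.5 and 0.542 to 0.894 CPM at E16.5, and Epcam went from 2.46, 1.06 and 0.798 to 0.218, 0.0279 and 0.0637 CPM (-3.78 ± 0.95), with E14.5 replicate 1 the highest. Of its 6 tested members 3 fell, and the defining surfactant gene Sftpc was at 0 in all 6 libraries. The 11 cardiac neuron markers summed to 26.7 to 30.5 CPM and then 12.3 to 15.3 CPM, and 7 of the 10 tested fell, among them Tubb3 (-1.68 ± 0.24). The 8 cartilage markers summed to 149 to 171 CPM and then 94.2 to 96.8 CPM, with falls in 4 of 7. The liver markers summed to 25.9 to 27.6 CPM and then 32.3 to 36.7 CPM, with 1 of 8 called (Trf, 0.41 ± 0.12), and the adipocyte markers to 1.82 to 2.18 CPM and then 3.76 to 5.81 CPM, with 1 of 7 called (Cidea, 1.37 ± 0.19). Col2a1, Col9a1 and Sox9 are themselves members of the cartilage list. The epithelial, neuronal and cartilage levels fell together with those of the signalling and valve genes above, and their part in those falls was not tested.

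The step was also set against both neighbouring steps of the same length, which share the E14.5 or E16.5 libraries with it, by a test of the difference between the changes. From the change between E12.5 and E14.5 it differed in 2892 genes (15%), with 1470 higher (7.62%) and 1422 lower (7.38%). From the change between E16.5 and E18.5 it differed in 3961 genes (20.5%), with 2048 higher (10.6%) and 1913 lower (9.92%). With the length and GC trends removed these counts were 1675 and 2101. The first fell to 1270 without E14.5 replicate 3, 1568 without E14.5 replicate 1 and 1855 without E14.5 replicate 2, and the second to 1746 without E16.5 replicate 1 and 2302 without E16.5 replicate 2.

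Many respiratory chain genes rose more in this step than in either neighbour, and so did many ribosomal protein genes. In complexes III to V, 28 of 38 changes were higher than in the earlier step and 22 higher than in the later step, and 24 and 17 with the trends removed. In complex I the counts were 26 and 24 of 37, and 21 and 8 with the trends removed. Ndufa8 shows the course, with means of 56.5 ± 3.89 CPM at E12.5, 49.1 ± 1.33 at E14.5, 99.7 ± 7.48 at E16.5 and 105 ± 3.82 at E18.5 (SD, n = 3). Of the 39 ribosomal protein genes, short as well, 20 changes were higher than in the earlier step and 32 higher than in the later step. With the trends removed these counts were 4 and 14. In fatty acid oxidation 12 of 31 changes were higher and 3 lower than in the earlier step, and 19 higher and 1 lower than in the later step. Of the 20 glucocorticoid genes 7 changes were higher and 2 lower than in the earlier step, and 7 higher and 1 lower than in the later step.

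Other lists differed in other ways. In fibrillar matrix 12 of 25 changes were lower than in the earlier step, and 2 were higher and 2 lower than in the later step. For capillary genes 5 of 10 were lower and 1 higher than in the earlier step, in which Fabp4 had gone from 3.56 to 43.7 CPM, and 4 were higher and 2 lower than in the later step. Of the 11 let-7 axis genes 1 change was higher than in the earlier step, and 1 was higher and 2 were lower than in the later step. Among interferon response genes 12 of 21 changes were lower than in the later step. In this step itself 1 of those 21 rose and 2 fell.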

How the data were processed

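Hearts of 10 ages with 3 libraries each were measured. RNA was taken up in Trizol and mRNA caught on poly-T beads, per the labels' protocols, and the submitters' processing notes name STAR 2.5.3a, fastp 0.18.0 and, as builds, mm10 and GRCm38. How reads were counted, with which annotation and whether by strand is not given in the sources used here. The deposited table holds expected counts (estimated counts per gene, 6.94% of values not whole at a tolerance of 1e-06), which were rounded. Genes with no symbol held 0.22% of counts. All 30 libraries were fitted as 10 age means with edgeR 4.0.16 (R 4.3.3) after its default filter on low counts, TMM scaling and a robust quasi-likelihood F test, which left 19280 genes, and calls were made at a Benjamini-Hochberg adjusted p under 0.05. CPM values are TMM-scaled. DESeq2 1.42.0, other scalings, filters, terms and left-out libraries were alternatives, and removal of the length and GC trends was added after seeing the data. Gene positions are those of GENCODE M21 (GRCm38), matched by gene ID; promoters and miRNAs are from RefSeq (GRCm38.p6). Named genes are the 12 largest rises and falls at 10 CPM or more without overlap, up to 4 called members of each of 63 lists at 1 CPM or more with the largest change, a fixed panel, and the 4 largest differences each way from each neighbouring step; other genes were chosen after their values were seen, and some genes that the rule names are not reported here. The comparison and the lists were chosen with earlier results of these data known. Same-numbered libraries did not deviate together (correlations 0.025, -0.016 and 0.041), so numbers were not taken as pairs. The scripts were tested on simulated data. Totals of 26441345 counts or more per library limit precision for genes under about 1 CPM.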

Additional observations from a re-analysis of the deposited data

Results flagged for a closer look

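Of the 2892 genes whose change differed from that of the step before, by the edgeR test of the difference itself, the 4 largest differences each way at 10 CPM or more are given. They were higher in red cell genes: Kel by 5.35 ± 0.51 on the log2 scale (SE; adjusted p = 3.8e-08), Slc4a1 by 4.67 ± 0.62, Trim10 by 4.66 ± 0.48 and Epb42 by 4.33 ± 0.54. Slc4a1, the anion exchanger of red cells, had means of 240 CPM at E12.5, 23.2 at E14.5, 56.9 at E16.5 and 8.24 at E18.5. They were lower in Clca3a2 (-3.15 ± 0.60), Ltbp2 (-2.56 ± 0.32), Fabp4 (-2.27 ± 0.24) and Dgkk (-2.16 ± 0.24). Ltbp2 and Fabp4 had fitted log2 changes of 3.71 and 3.62 before and of 1.14 and 1.34 here, while Dgkk went from a change of 0.67 to one of -1.49.

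Of the 3961 that differed from the step after by the same test, the 4 largest each way are given likewise. The changes were higher in Hbb-bs (5.36 ± 0.66, adjusted p = 1.5e-05), Hbb-bt (5.33 ± 0.70), Alas2 (4.93 ± 0.55) and Hba-a1 (4.83 ± 0.62), all with a negative fitted change from E16.5 to E18.5. They were lower in Gvin1 (-3.25 ± 0.39), Xirp2 (-2.69 ± 0.56), Eif2ak2 (-2.02 ± 0.20) and Pirt (-1.88 ± 0.34). Gvin1, an interferon-inducible GTPase gene, had means of 4.03 CPM at E14.5, 3.02 at E16.5 and 21.5 at E18.5, and Eif2ak2, the RNA-activated kinase PKR, 18.5, 9.66 and 20.5. The 16 differences kept their direction and call with the length and GC trends removed.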

How the results depend on the processing

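Leaving out 1 library gave 3446 to 4579 changed genes, with 1956 to 2521 higher and 1490 to 2058 lower. Differences from the earlier step then ranged from 1270 to 2848 (630 to 1460 higher, 640 to 1388 lower) and those from the later step from 1746 to 3717 (818 to 1941 higher, 928 to 1776 lower). With library size alone 1508 rose and 4015 fell, the earlier-step differences were 802 higher and 2123 lower, and the later-step ones 1360 and 2213. With the length and GC trends removed the earlier-step differences numbered 1675 (962 higher, 713 lower) and the later-step ones 2101 (1264 and 837). With only the libraries compared, 3708 rose and 3506 fell, and the differences were 5690 (2859 and 2831) and 6591 (3442 and 3149). The cause of these shifts was not tested. DESeq2 called 2690 higher and 2688 lower. With a term for the sex-linked transcripts in the fit, 2637 rose and 2261 fell.

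With the replicate block 5199 genes changed, 2809 higher and 2390 lower, and the differences numbered 3181 and 4280. Among 232 named genes the block ended 1 call and added 1 (Ldha, adjusted p = 0.049). Nothing in the labels or the deviations shows that libraries with the same number belong together.

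Over all alternatives to the named genes' changes, 3726 values kept direction and call, 174 lost the call, 18 gained it and 18 changed sign. The sign changes were in Ccnb1 (0.04 with the trends removed, 0.03 without E16.5 replicate 3), Col1a1 (-0.03) and Col3a1 (-0.02) with library size alone, Gata4 and H19. Gata4 had -0.003 with DESeq2 and with RLE factors, -0.11 with the trends removed, -0.02 with upper quartile scaling, -0.14 with library size alone, -0.04 without E14.5 replicate 3 and -0.001 without E16.5 replicate 1. H19 had -0.001 with DESeq2 and with RLE factors, -0.13 with library size alone and with the trends removed, -0.02 with upper quartile scaling and -0.02 without E14.5 replicate 1 and without E16.5 replicate 1. List medians changed sign with library size alone for calcium handling (-0.06), fibrillar matrix (-0.02), lymphatic (-0.04), fibroblast (-0.01) and liver genes (-0.003), and for liver without E14.5 replicate 1 (-0.13) or 3 (-0.02). Over the libraries left out in turn, Gata4 ranged from -0.04 to 0.05, H19 from -0.02 to 0.05 and the liver median from -0.13 to 0.19.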
